A study of Drosophila melanogaster with 2 samples.

Results

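The genes described here are the translation initiation and elongation factor genes of Drosophila melanogaster, taken as the annotated protein-coding genes whose symbols start with eIF or eEF. They number 52 of the 13945 protein-coding genes on the chromosome arms, of which 44 are initiation factor genes and 8 are elongation factor genes. In the study, chromatin of whole prepupae, males and females pooled, was precipitated with an antibody against GFP and sequenced (ChIP-seq). The flies belonged to a stable transgenic line in which GFP had been joined to the C terminus of the product of CG6854, and the labels give CTPsyn, CTP synthase, as the target. The reference annotation keeps CG6854 as a synonym of Ctps and also of the overlapping gene CG45071. The 2 biological replicates carry the numbers 2 and 3 and form 1 group, so the members were set beside all protein-coding genes and not beside another condition. The age of the animals is given as unknown, and control DNA was not analysed here. A gene counted as bound when a peak summit of the reproducible list lay within 500 bp of any of its annotated start sites. That list holds the peaks that passed the authors' irreproducible discovery rate (IDR) threshold on build dm6.

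Initiation factors assemble the initiator tRNA, the small ribosomal subunit and the capped mRNA, locate the start codon and then allow the large subunit to join. Elongation factors bring each aminoacyl-tRNA to the ribosome and move the ribosome along the mRNA, using GTP. Their genes are expressed in nearly every tissue, and some have second copies with expression limited to the germ line. CTP synthase is a metabolic enzyme that makes CTP from UTP and gathers into filaments in fly tissues.

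The reproducible list held 5703 summits. Their signal, a score of unstated scale that came with every deposited peak, had a median of 200.1 and ran between 136.3 and 2488. Read depth is unknown from these lists. The 2 replicates have no control group beside them, so no test was run, and shares carry 95% Wilson intervals, which cover counting error over genes only.

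A promoter summit was present at 20 of the 52 factor genes, 38.5% (interval 26.47 to 52.04), beside 20% of all protein-coding genes (2785 of 13945). Of the initiation factor genes 15 of 44 were bound, 34.1% (interval 21.88 to 48.86), and of the elongation factor genes 5 of 8, 62.5% (interval 30.57 to 86.32). The intervals of initiation and elongation factors overlap, and that of elongation factors rests on 8 genes. The strongest promoter summits of the bound members had a median signal of 236.7, beside 212.5 over all bound genes. Without genes whose summit was shared with another gene, the order turned round, with 199.9 over 15 members and 213 over all such bound genes. With all bound genes kept, the median was 200.2 for initiation factors and 320.1 for elongation factors. The members' signals ran between 139.1 and 845.9, the strongest ranking 93 in the list. Of the 20, 4 (20%) were among the strongest 570 summits, which held those of 13.6% of all bound genes. These were eIF4EHP, eEF1gamma, eIF6 and eIF1. The summits of eIF4EHP and eIF1 were shared with another gene and lay nearer to its start, so the higher share rests on few genes.

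**Figure D1:**
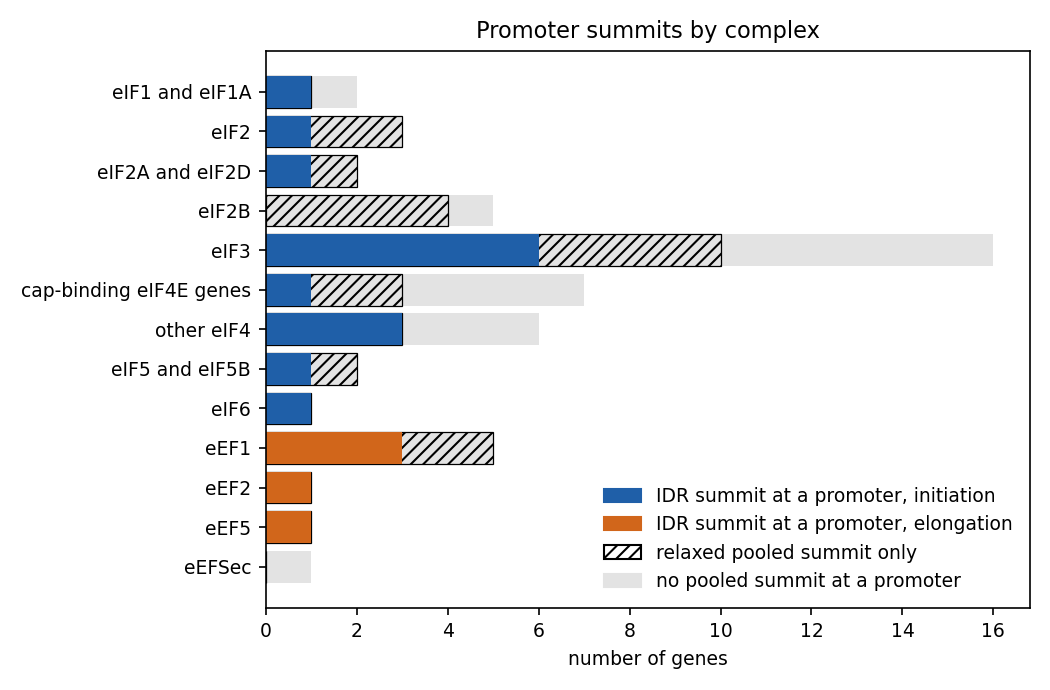
Numbers of genes in each complex or group of factors, by whether an IDR summit lay within 500 bp of a start site, a summit was found in the relaxed pooled list only, or none was found. The eIF3 genes hold 6 of the 20 bound members, and the 5 eIF2B genes hold none. Of all protein-coding genes 20% were bound, and the intervals of both groups include that share.

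The sequence under the summit is shown for 3 bound members, because they carry the letters that recur among factor promoters or, in eIF4EHP, none of them. Each is the strongest promoter summit with 50 bp on either side, 5′ to 3′ on the gene's strand, from the RefSeq genome on build dm6. Capitals mark the core of the DNA replication-related element (DRE, TATCGATA) in eEF1gamma and the Motif 1 core (GGTCACAC) in eIF5B. Both are core promoter elements common in broadly expressed fly genes.
eEF1gamma (3R:29220120-29220220, plus strand, signal 789.6): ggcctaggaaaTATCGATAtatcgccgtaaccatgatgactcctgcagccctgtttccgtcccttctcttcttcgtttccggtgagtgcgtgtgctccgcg
eIF4EHP (3R:24109121-24109221, minus strand, signal 845.9): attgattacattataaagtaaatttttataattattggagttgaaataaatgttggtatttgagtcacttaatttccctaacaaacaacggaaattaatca
eIF5B (3L:3460508-3460608, minus strand, signal 199.9): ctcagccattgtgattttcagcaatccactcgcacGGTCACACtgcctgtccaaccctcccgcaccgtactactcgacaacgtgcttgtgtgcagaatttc
The eIF4EHP stretch has a GC content of 22.8%, the lowest of the 20 bound members. Their median was 50.5%, with a highest value of 62.4%, beside a median of 44.6% over all bound genes.

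Among the initiation factors, eIF4EHP had the strongest summit of all members. It encodes a cap-binding protein that blocks translation of selected mRNAs instead of recruiting the ribosome. The peak at 3R:24108947-24109386 had a signal of 845.9, with 382.8 in replicate 2 and 455.5 in replicate 3. Its summit lay 211 bp upstream of the eIF4EHP start, within 500 bp of a start of CG18428, which was the nearer gene. A further 4 summits lay in the introns of eIF4EHP, with signals of 228.3, 219.4, 182.9 and 165.2, and the first pair of these was also within 500 bp of a start of Syx1A, a syntaxin gene. Of the 7 genes of the eIF4E cap-binding family only eIF4EHP was bound, 14.3% (interval 2.568 to 51.31). This share is near the 20% of all protein-coding genes and does not set the family apart. eIF4E1, the main cap-binding initiation factor, had a signal of 77.83 in the relaxed pooled list and eIF4E6 had 72.45. eIF4E7 had a relaxed summit in replicate 3 only, with a signal of 21.13. eIF4E3, eIF4E4 and eIF4E5 had no relaxed summit at a promoter in the pooled list or either replicate.

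The relaxed lists hold 30000 summits each, one called by the authors on both replicates pooled and one on each replicate. At the promoters of the 52 members a relaxed pooled summit was found in 36, 69.2%, beside 48.1% of all protein-coding genes. These were 29 of the 44 initiation factor genes and 7 of the 8 elongation factor genes. Every bound member had the same signal and rank in the relaxed pooled list as in the reproducible list. A lower pooled signal at the unbound members is thus set by the threshold and is no separate result.

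The remaining eIF4 genes encode the scaffold, helicase and helicase cofactors that open the mRNA for the small subunit, and 3 of these 6 were bound. eIF4H1, which encodes a cofactor of the helicase, had an intronic summit 145 bp upstream of one of its start sites (X:16448908-16449077), with a signal of 313.4, and of 146.2 in replicate 2 and 172 in replicate 3. eIF4A, the helicase gene itself, had a signal of 200.2, with 79.76 in replicate 2 and 128 in replicate 3, at a summit 12 bp upstream of one of its starts (2L:5982447-5982684). eIF4G2, a second gene for the scaffold that is needed in the male germ line, had a signal of 217.3, with 132.8 in replicate 2 and 98.21 in replicate 3. Its summit lay 156 bp downstream of a start, nearer to a start of CG33111 (3R:23818866-23819295). eIF4A was the higher of these in replicate 3 and eIF4G2 the lower, so the order of the pair differed between the replicates. eIF4G1, which encodes the general scaffold and lies on chromosome 4, had no promoter summit in any list, and its nearest IDR summit lay 63719 bp away. eIF4B had none either, with the nearest IDR summit 4762828 bp away, and nor did eIF4H2.

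The multisubunit factor eIF3 holds the small subunit ready for the mRNA. Of its 16 genes 6 were bound, 37.5% (interval 18.48 to 61.36), beside 20% of all protein-coding genes. Except for eIF3a and eIF3h their signals lay low in the list, with a median over the 6 of 154.5. eIF3a, which encodes a core scaffold subunit, had a signal of 351.6 at 3R:4433641-4434070, with 176 in replicate 2 and 170.2 in replicate 3, and its summit was shared with CG1074. eIF3h had 292.7 at 2L:5052370-5052799, with 159.2 in replicate 2 and 129.6 in replicate 3, shared with senju. A second summit of eIF3h, with a signal of 219.3, lay 4 bp upstream of a start. Both were thus within reach of another gene, whereas the other 4 bound eIF3 genes shared theirs with none. eIF3f1 had 161.9 at 3R:4713835-4714264, in a coding exon, with 107.5 in replicate 3 and no replicate 2 summit within 100 bp. Farther from that summit, its promoter held a replicate 2 summit of 79.43. eIF3g1 had 147.1 at X:2610032-2610461, with 87.68 in replicate 2 and 54.44 in replicate 3. eIF3l had 142.2 at 3L:12145564-12145993, with 70.87 in replicate 2 and 73.2 in replicate 3. eIF3j, which encodes a loosely attached subunit, had 145.7 in an intron, with 83.04 in replicate 2 and 63.56 in replicate 3. Among the 5703 strongest summits of each replicate, 8 eIF3 genes had a promoter summit in replicate 2 and 3 had one in replicate 3, so the number of bound eIF3 genes depended on the replicate.

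All 6 strongest eIF3 summits lay downstream of the start, between 39 bp in eIF3a and 318 bp in eIF3l, with a median of 163.5 bp. Over all bound genes 40% of summits lay downstream and the median was -42 bp, on the upstream side. In eIF3g1 the distance was 89 bp, in eIF3f1 132 bp, in eIF3h 195 bp and in eIF3j 202 bp. Of the 15 bound initiation factor genes 8 had the strongest summit downstream, and outside eIF3 these were eIF4G2 and eIF5B only. Among other translation genes downstream summits were not particular to eIF3. They made up 60% in bound elongation factor genes (3 of 5), and 60.9% and 75% in bound genes of large and small ribosomal subunit proteins. In the other bound genes of translation control described below the share was 78.6%, and in bound aminoacyl-tRNA synthetase genes 33.3% (2 of 6).

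Of the unbound eIF3 genes, 4 had a weaker summit in the relaxed pooled list. These were eIF3b (116.1), eIF3m (94.22), eIF3i (88.26) and eIF3d1 (42.54). The paralogs eIF3d2, eIF3f2 and eIF3g2 had no relaxed promoter summit in the pooled list or in either replicate. In the pairs eIF3f1 and eIF3f2, and eIF3g1 and eIF3g2, the first gene was bound and the second was not, and in the pair eIF3d1 and eIF3d2 neither was bound. eIF3k had a relaxed summit in replicate 2 only, with a signal of 72.36, eIF3c likewise with 58.31, and eIF3e had one in replicate 3 only, with 68.64.

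The ternary complex that carries the initiator tRNA is formed by eIF2, whose 3 genes had 1 bound member. eIF2beta had 2 promoter summits. The stronger, at 3L:12526772-12527201, lay 256 bp upstream of the start with a signal of 177.9, with 112.4 in replicate 2 and 77.42 in replicate 3. The weaker lay 253 bp downstream with a signal of 145.6. eIF2gamma, which encodes the GTP-binding subunit, had a relaxed pooled signal of 101.2, and eIF2alpha, whose product is phosphorylated under stress to slow initiation, had 86.33. The IDR summit nearest to a start of eIF2alpha was that of its neighbour eIF4H1, 2014 bp away.

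The exchange factor eIF2B recycles eIF2, and 0 of its 5 genes were bound, beside 20% of all protein-coding genes. The upper bound of the interval is 43.45%, so a count of 0 in 5 does not set eIF2B apart from all genes. A relaxed pooled summit was present at 4 of the 5 (80%), beside 48.1% of all genes. Relaxed pooled signals were 78 at eIF2Bepsilon, 73.52 at eIF2Bgamma, 71.22 at eIF2Bdelta and 43.94 at eIF2Bbeta, and eIF2Balpha had no relaxed summit. These 4 signals lay far below the lowest of the reproducible list, 136.3, though that they lie below it follows from the threshold. The start of eIF2Bbeta nonetheless lay 686 bp from the summit of the strongest peak of the whole list, that of the UDP-galactose transporter gene Ugalt, with a signal of 2488.

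The other initiation factor genes were bound in 4 of 7 cases. eIF6, whose product keeps the large subunit from joining too early, had a signal of 645.4, with 256.8 in replicate 2 and 384.3 in replicate 3, at a summit 105 bp upstream of its start. eIF1, which encodes a factor for start codon selection, had 502.7, with 222.5 in replicate 2 and 299.1 in replicate 3. Its summit lay 353 bp upstream (3L:3222834-3223120), nearer to a start of the ribosomal protein gene RpL28. For eIF1 the gene to which the peak belongs therefore cannot be told apart from its neighbour. eIF5B, the GTPase of subunit joining, had 199.9 at 3L:3460343-3460772, with 83.82 in replicate 2 and no replicate 3 summit within 100 bp. Farther from that summit, its promoter held a replicate 3 summit of 128.9. A second IDR summit of eIF5B, of 168.8, lay 154 bp upstream of a start. eIF2D, which encodes a factor that can bring tRNA to the ribosome without eIF2, had the lowest signal of the bound members, 139.1, with 58.69 in replicate 2 and 81.81 in replicate 3. Just outside the list stood eIF2A, with a relaxed pooled signal of 134.4 and rank 5810. eIF5 lay farther down, with 100.8 and rank 8952. eIF1A lay just outside the window: its intronic summit of signal 150.6 was 511 bp from a start.

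Elongation factors had their summits close to the start site more often than initiation factors in this set, a difference described by its counts and not tested. Taking the strongest summit of each gene, all 5 bound elongation factor genes had it within 100 bp of a start, against 4 of the 15 bound initiation factor genes (26.7%). Over all bound genes this share was 43.3%, and over all 20 bound members 45%. With any promoter summit counted, the initiation factor genes numbered 5 of 15, eIF3h being added, and the share of all bound genes was 48.2%. A gene with several start sites has its distance taken to the nearest of them, and 4 of the 5 elongation factor genes had several, against 6 of the 15 initiation factor genes. Among these, 4 of 4 elongation factor genes and 2 of 6 initiation factor genes had the strongest summit within 100 bp, beside 45.6% of all bound genes with several starts. The part of the number of start sites in the difference was not tested further. The median size of the distance was 27 bp for elongation factors, 149 bp for initiation factors and 119 bp for all bound genes. Peak width differed too: 20% of the elongation and 66.7% of the initiation factor peaks were 430 bp wide, a width at which the summit is the peak's centre. The part of peak width in the difference was not tested. None of the 5 elongation factor summits was shared with another protein-coding gene, against 5 of the 15 initiation factor summits, 33.3%, and 36.4% of all bound genes.

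**Figure D2:**
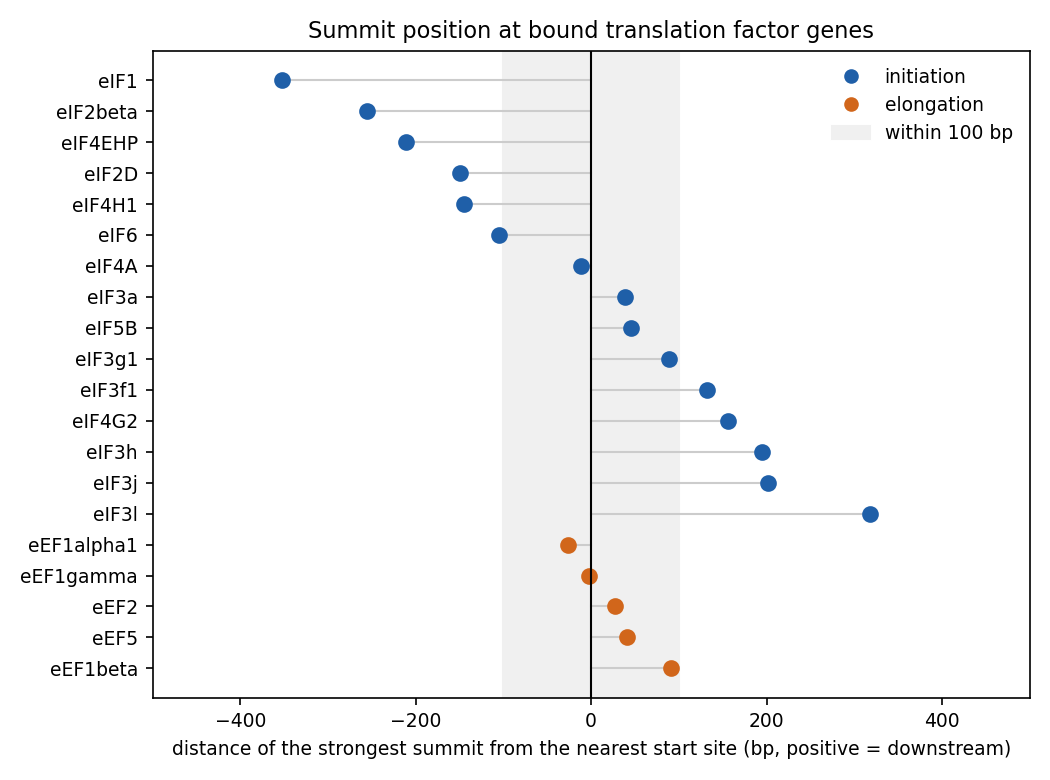
Signed distance in bp between the strongest promoter summit and the nearest start site of each of the 20 bound members, negative upstream, with the 100 bp on either side of the start shaded. The 5 elongation factor genes lie between -26 and 91 bp, and the initiation factor genes between -353 and 318 bp.

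eEF1 delivers aminoacyl-tRNA to the ribosome, and 3 of its 5 genes were bound. eEF1gamma, which encodes a structural subunit of the exchange complex, had a signal of 789.6, the second highest of all members, with 311.9 in replicate 2 and 476.2 in replicate 3. Its summit lay 2 bp upstream of the start (3R:29219937-29220365). eEF1alpha1, which encodes the tRNA-carrying GTPase itself, had 320.1, with 162.6 in replicate 2 and 181.6 in replicate 3, and its summit lay 26 bp upstream of one of its 4 start sites. eEF1beta, which encodes an exchange subunit, had 158.9 in a coding exon 91 bp downstream of its only start, with 77.79 in replicate 2 and 73.55 in replicate 3. The second GTPase gene, eEF1alpha2, was unbound, with a relaxed pooled signal of 52.68, and the nearest IDR summit, that of awd, lay 6218 bp away. eEF1delta was unbound too, with 39.31, the lowest relaxed pooled signal among the members.

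eEF2, the gene of the translocation GTPase, had a signal of 370.3 at 2L:21681941-21682247, with 179 in replicate 2 and 191.8 in replicate 3, 27 bp downstream of a start in the 5′ UTR. eEF5, also known as eIF5A, encodes a factor that helps ribosomes past difficult stretches such as runs of proline. Its summit, 41 bp downstream of a start in the 5′ UTR, had 256.2, with 132.2 in replicate 2 and 137.4 in replicate 3. eEFSec, the elongation factor for selenocysteine, had no promoter summit in the pooled list or in either replicate. Its nearest IDR summit, that of Acox57D-d, lay 3137 bp away.

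**Figure D3:**
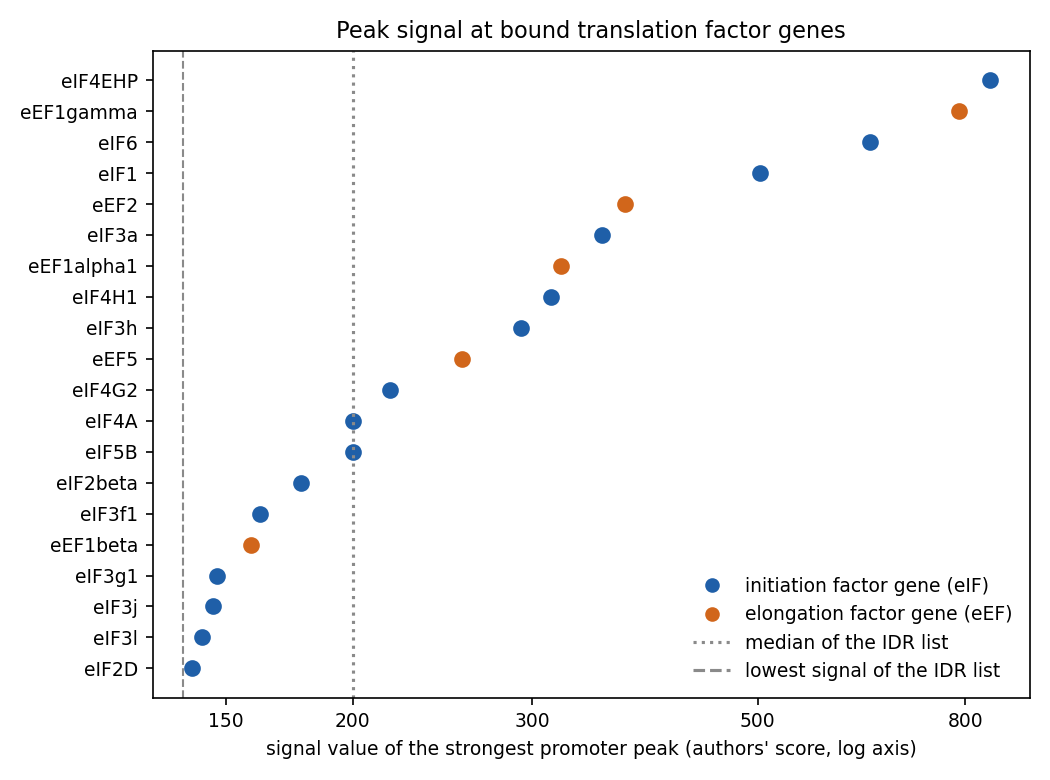
Signal of the strongest promoter summit of each of the 20 bound members in the IDR list (authors' score, log axis), with initiation and elongation factor genes in 2 colours and lines at the median and the lowest signal of the list. The values run between 139.1 in eIF2D and 845.9 in eIF4EHP.

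The 18 bound members with a summit in both replicate lists within 100 bp of the IDR summit were compared between replicates. The ratio of replicate 3 over replicate 2 had a median of 1.06, with values between 0.621 in eIF3g1 and 1.6 in eIF4A, and 11 of the 18 (61.1%) were higher in replicate 3. Over all bound genes the median ratio was 1.12 and 60% were higher in replicate 3. The order of strength was broadly kept, in that eIF4EHP, eEF1gamma, eIF6 and eIF1 held the 4 highest places in both replicates. Among the strongest 5703 summits of replicate 2, 24 members had a promoter summit, 46.2%, beside 20.5% of all genes. In replicate 3 there were 16, 30.8%, beside 19.1% of all genes. Of the 20 bound members, 15 were among the strongest of both, 75%, beside 74.1% of all bound genes. Those missing from the strongest of replicate 3 were eEF1beta, eIF3g1, eIF3j and eIF3l, and eIF2D was missing from those of replicate 2. The unbound members eIF1A (81.8), eIF2A (76.1), eIF5 (73.56), eIF3k (72.36) and eIF3b (69.65) were among the strongest of replicate 2, and 0 unbound members were among the strongest of replicate 3. In replicate 3, eIF2A had 69.93, eIF3b 67.13, eIF5 33.11 and eIF1A 30.78, while eIF3k had no summit. The replicate lists were part of what set the IDR list, so these shares are not independent of it.

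**Figure D4:**
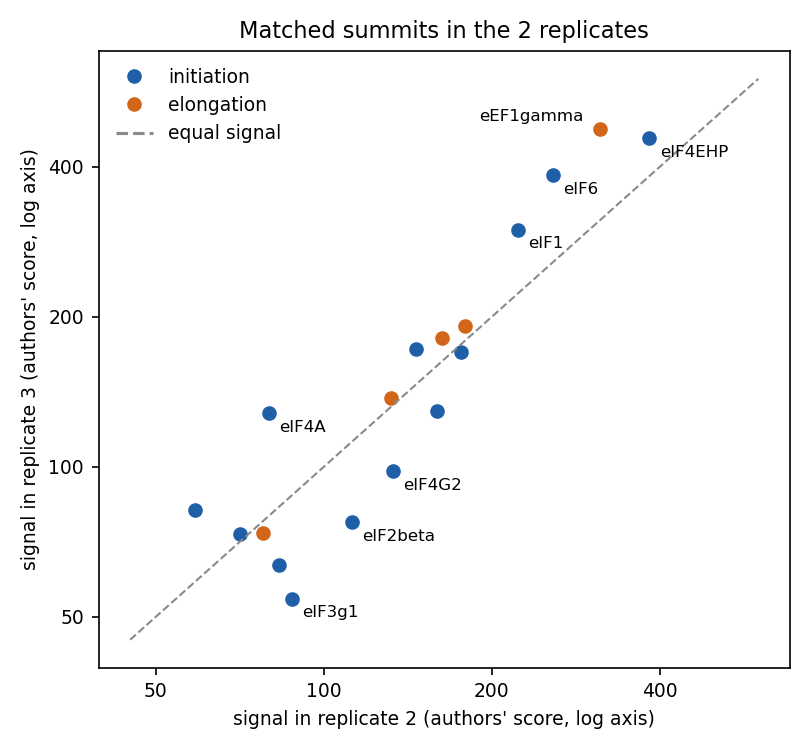
Signal at the matched summit in replicate 2 and replicate 3 for the 18 bound members found in both (authors' score, log axes), with a line of equal signal. 11 of the 18 points lie above the line, and eIF3g1 lies farthest below it.

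The 32 unbound members fell into 16 with a relaxed pooled promoter summit, with signals between 39.31 in eEF1delta and 134.4 in eIF2A, and 16 without. Of the 16 without, 11 had no relaxed promoter summit in any of the pooled and replicate lists. An IDR summit lay within 5000 bp of a start site for 10 of the 32 and farther away for 22. These relaxed summits did not pass the authors' threshold, and at unknown depth they do not separate weak binding from background.

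The share of bound genes differed with the number of annotated start sites, and a gene with more of them has more promoter sequence in reach. Whether that sets the difference was not tested. Among genes with 1 annotated start site, 10 of 32 members (31.2%) were bound, beside 13.7% of all such genes. Among genes with more than 1, 10 of 20 members (50%) were bound, beside 37.4%. Bound members lay on X (2 of 7 members), 2L (3 of 5), 2R (5 of 13), 3L (4 of 11) and 3R (6 of 15), and the 1 member on chromosome 4 was unbound. By annotation the strongest summits lay in a 5′ UTR in 7 members, upstream of the gene in 6, in an intron in 5 and in a coding exon in 2. Peaks of 430 bp, the commonest width, made up 11 of the 20 members' peaks (55%) and 58.6% of those of all bound genes, and their summits lie at the centre of the peak.

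Lists of other translation genes were set beside the members, chosen by symbol after their values had been seen. The genes of large ribosomal subunit proteins (RpL) were bound in 46 of 54 cases (85.2%), with a median signal of 425.3, and those of the small subunit (RpS) in 32 of 39 (82.1%), with a median of 349.5. Their summits lay within 100 bp of a start in 95.7% of bound RpL genes and 87.5% of bound RpS genes. Aminoacyl-tRNA synthetase genes, whose products load tRNAs, were bound in 6 of 33 cases (18.2%), with a median of 178.1. That share is near the 20% of all protein-coding genes. The synthetase list admitted symbols of mitochondrial synthetases, whereas the members and the ribosomal lists left mitochondrial genes out, so the lists are not alike. The members' share of 38.5% lay between those of ribosomal proteins and synthetases, and the interval of the synthetases, 8.611 to 34.39, overlaps that of the members.

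A list of other genes of translation control had 29 of its 32 names matched, and 14 of these were bound, 48.3% (interval 31.39 to 65.57), beside the 20% of all genes. Their signals had a median of 170.8, below that of the bound members. Rack1, which encodes a scaffold on the small ribosomal subunit, had 428.9, with 208.2 in replicate 2 and 223.4 in replicate 3, at a summit shared with mts. Among mRNA-binding and eIF4-related genes, pAbp (poly(A)-binding protein) had 295.2, NAT1 (an eIF4G-like protein) 253.9, bel (an RNA helicase) 164.1, Pdcd4 (an eIF4A inhibitor) 149.6 and Thor, the 4E-BP that holds eIF4E, 167.2. The Thor summit lay 5 bp from a start. Several of these differed between replicates by more than 1.5 times. NAT1 had 165.1 in replicate 2 and 96.06 in replicate 3, Pdcd4 76.56 and 31.43 in the same order, and Thor 62.93 and 107.7. The 4 matched genes of termination and ribosome rescue were all bound, with eRF1 at 234.9, eRF3 at 156.2 (61.64 in replicate 2 and 95.53 in replicate 3; shared with SC35), HBS1 at 155.3 (shared with CG12025) and pelo at 144. Of the signalling genes, crc, the fly ATF4, had 240.7 (128.6 in replicate 2 and 71.88 in replicate 3; shared with CG46314), S6k 174.3 (shared with kri) and the eIF2alpha kinase gene PEK 166.8. Tctp had 243.5, shared with SdhC. The unbound genes were Paip2, 4E-T, cup, mxt, Gcn2, PPP1R15, DENR, MCTS1, raptor and the 6 matched factors of mitochondrial translation (mEFTu1, mEFTu2, mEFTs, mEFG1, mIF2 and mIF3).

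Promoter motifs were counted in the sequence from 250 bp before to 50 bp after every annotated start, on both strands and with any overlap allowed. The DRE core (TATCGATA) was present in 15 of the 52 members (28.8%), beside 10.2% of all protein-coding genes. The shares were close in the bound members, 6 of 20 (30%), and the unbound members, 9 of 32 (28.1%), and the core was found in 13.6% of all bound genes. The Motif 1 core (GGTCACAC) was present in 9 members (17.3%), in 4 bound (20%) and 5 unbound (15.6%), beside 8.71% of all genes. The GAGA repeat (GAGAGAG), which was present in 20% of all bound genes and 9.08% of all genes, was present in 1 bound member (5%), eIF4G2, and 3 unbound members (9.38%). The E-box (CACGTG) was present in 2 bound members, eEF2 and eIF4A, and 3 unbound members, beside 5.3% of all genes. A TATA box (TATAAA, between 40 and 20 bp before a start on the gene strand) was present in 1 member, the unbound eIF4E7, beside 9.4% of all genes. Within 50 bp of the summit, 1 bound member (5%) had the DRE core and 2 (10%) had the Motif 1 core, beside 1.4% and 1.26% of all bound genes. These shares rest on 1 and 2 genes and were not tested. No bound member had the GAGA repeat or the E-box within 50 bp of the summit. At 5.46% and 1.04% of all bound genes these counts of 0 in 20 say nothing about the members. A match is a match of letters only, and genes with several start sites had more sequence searched. Counts go by gene, so a motif and a summit can belong to different start sites, as for the DRE core of eIF4A.

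**Figure D5:**
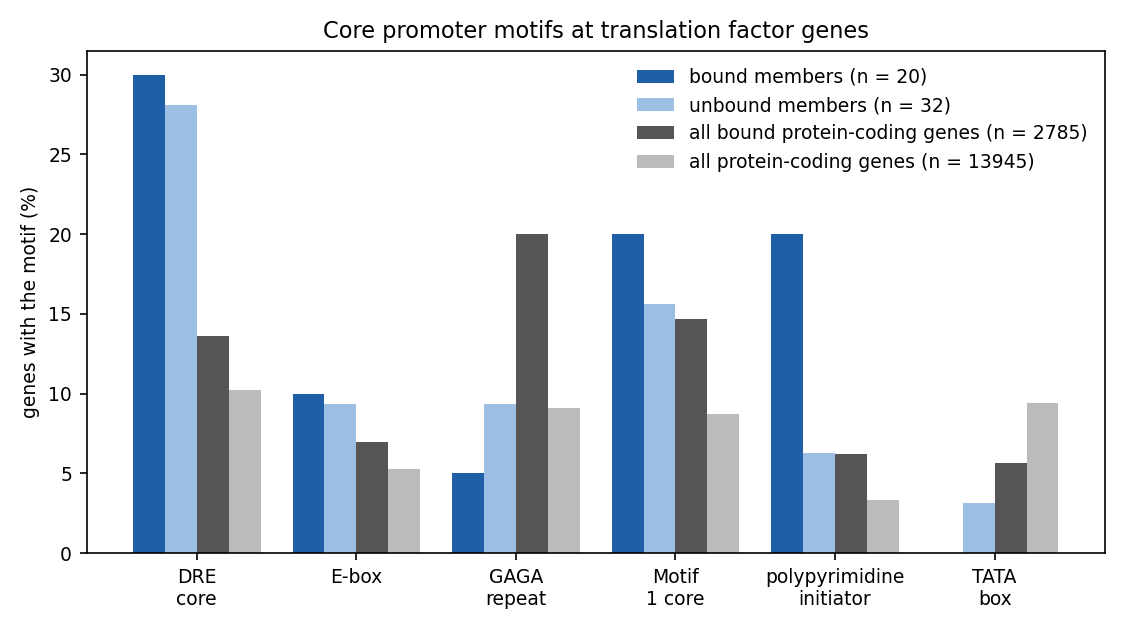
Percentage of genes with each motif in the promoter window, for bound members, unbound members, all bound genes and all protein-coding genes. The DRE core is at 30% of bound members and 28.1% of unbound members, and the GAGA repeat at 5% of bound members against 20% of all bound genes.

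Promoters with DRE and Motif 1 cores close to the start are printed for some bound and unbound members, as chosen examples. In other members cores lay elsewhere, as in the unbound eIF1A (202 bp before a start) and the bound eIF5B (30 bp after one). Core position was not compared between bound and unbound members. Each runs from 100 bp before the start to 20 bp after it, 5′ to 3′ on the gene's strand, from the RefSeq genome on build dm6, with both cores in capitals on either strand.
eIF3l (3L:12146078-12146197, minus strand, bound): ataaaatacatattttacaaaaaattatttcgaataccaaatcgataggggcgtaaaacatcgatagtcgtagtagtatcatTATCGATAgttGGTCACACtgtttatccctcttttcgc
eIF3a (3R:4433876-4433995, minus strand, bound): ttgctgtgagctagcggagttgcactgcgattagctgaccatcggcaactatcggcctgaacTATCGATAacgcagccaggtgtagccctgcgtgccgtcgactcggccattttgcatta
eIF2alpha (X:16446974-16447093, minus strand, unbound): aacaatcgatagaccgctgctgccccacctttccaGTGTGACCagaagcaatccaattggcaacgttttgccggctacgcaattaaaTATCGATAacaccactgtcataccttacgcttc
eIF2gamma (3R:15263439-15263558, minus strand, unbound): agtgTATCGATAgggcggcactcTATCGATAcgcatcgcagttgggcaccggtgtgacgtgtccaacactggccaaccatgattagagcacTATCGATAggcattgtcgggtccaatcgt
In eIF3l a DRE core began 18 bp and a Motif 1 core 7 bp before the start, while the summit lay 318 bp downstream, outside the stretch shown. In eIF3a the DRE core began 38 bp before the start and the summit lay 39 bp after it. In the unbound eIF2alpha a Motif 1 core began 65 bp and a DRE core 13 bp before the start, and in the unbound eIF2gamma 3 DRE cores began 96, 77 and 9 bp before it.

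The polypyrimidine initiator is the run of pyrimidines at which transcripts of many translation genes begin. It was counted as CCTTT or TCTTT on the gene strand with its second letter within 5 bp of an annotated start. It was present in 4 of the 20 bound members (20%), eEF2, eEF5, eIF3f1 and eIF4A, and in 2 of the 32 unbound members (6.25%), eIF3i and eIF3m. The shares were 6.21% of all bound genes and 3.31% of all genes. The start sites of 4 of these genes are shown, from 20 bp before to 20 bp after the start, 5′ to 3′ on the gene's strand of the RefSeq genome on build dm6, with the initiator in capitals.
eEF2 (2L:21682096-21682136, minus strand, bound): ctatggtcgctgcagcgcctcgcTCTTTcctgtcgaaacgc
eIF3f1 (3R:4714162-4714202, minus strand, bound): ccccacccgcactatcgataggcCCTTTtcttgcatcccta
eIF4A (2L:5981744-5981784, plus strand, bound): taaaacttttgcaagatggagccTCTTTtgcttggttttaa
eIF3i (2L:4967755-4967795, minus strand, unbound): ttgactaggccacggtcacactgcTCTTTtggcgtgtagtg
In these stretches the second letter of the initiator lay 4 bp after the annotated start in eEF2, eIF3f1 and eIF4A. In eIF3i it lay 5 bp after the start, the limit allowed. Whether transcripts begin at these letters was not tested. The summit of eEF2 lay 27 bp and that of eIF3f1 132 bp downstream of the start shown. The summit of eIF4A lay beside another of its 3 start sites and not at the one shown. Of the 6 members with the initiator 4, eIF4A included, were bound (66.7%), beside 37.4% of all genes with it. Of the 46 members without it 16 were bound (34.8%), beside 19.4% of all genes without it. All these shares count by gene and not by start site.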

How the data were processed

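ChIP-seq peaks of 2 biological replicates were analysed from the narrowPeak lists on build dm6. Notes that the submitters deposited beside the lists state that relaxed peaks were called against a control for every replicate and for both pooled, and that the IDR list derives from these. Which aligner and which caller were used is not given in these sources. The signal value is a score deposited by the authors, of unstated scale, and was compared only inside a list. For all IDR peaks the −log10 q-value that the authors deposited equalled 4.18 and so ranked nothing. Summits came from the deposited offset. Start sites came from Ensembl release 115, and sequences from the RefSeq genome of the same build. A replicate value is the signal of the nearest summit within 100 bp of the IDR summit. Of each replicate list, the 5703 strongest summits were used as the list without the other replicate. Genes were counted beside all protein-coding genes with Python 3.11.15, numpy 2.4.6 and scipy 1.17.1, and the counting was tested on simulated data. The 2 samples of 1 group allow no test.

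Members, lists and motifs were chosen with earlier results of these data known. Named are all bound members, unbound members with a relaxed pooled summit, the paralogs, bound genes of translation control and genes that share a summit; others were named after their values were seen. Abce1, mEFG2 and Tor of the translation control list were not matched to 1 gene. Alternatives were the stronger part of the list, windows of 250 and 1000 bp, single replicates, the pooled list, 1 start site per gene and 1 gene per summit.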

Additional observations from a re-analysis of the deposited data

How the results depend on the processing

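Of the 52 members, 17 were bound with a window of 250 bp and 22 with 1000 bp, where 16.7% and 23.4% of all genes were. With 1 start site per gene 18 were bound, beside 17.5% of all genes, and with 1 gene per summit 17, beside 16.4%. Counts by complex are small and several moved. With 250 bp, eIF2 and the pair eIF1 and eIF1A had 0 bound genes. With 1000 bp, eIF2B had 1 and the pair had 2. With 1 gene per summit, the eIF4E family and the pair had 0. In genes with 1 annotated start site, an alternative chosen after seeing the data, the share was 31.2%. The stronger part of the list, which by construction holds fewer summits, left 12 members bound (23.1%, beside 11.1% of all genes), of which 8 were initiation factors. The relaxed pooled list, which holds more, gave 36 members (69.2%), of which 29 were initiation factors. Leaving out 1 replicate gave 16 to 24 members (30.8% to 46.2%), 12 to 19 initiation factors and 4 to 5 elongation factors, and 3 to 8 eIF3 genes, the lower number without replicate 2.

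The median signal of 236.7 was 256.2 with a window of 250 bp, 253.2 with 1000 bp and 199.9 without members whose summit is shared, which lay below the 213 of all bound genes without a shared summit, a value added after seeing the data. In single replicates, on the score of 1 library, it was 129.6 to 132.8. With a match within 250 bp all 20 bound members were found in both replicate lists. At the summit instead of the promoter, bound members with the DRE core numbered 1 instead of 6, with Motif 1 2 instead of 4, with the E-box 0 instead of 2 and with the GAGA repeat 0 instead of 1. No paired analysis was possible because the 2 samples form 1 group. Read depth is unknown, so a summit missing from the list does not show absence of binding.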
